A study of Homo sapiens with 9 samples.

Results

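Chromosome 1 carried 16644 of the 122551 called RBPJ intervals of the series, spread over 4 lists with 1 library each. An interval is a stretch of DNA that a peak caller marked as holding more reads than an estimated background. The members were every interval on chromosome 1 in those lists, counted by midpoint in fixed windows of 10 Mb from position 0. The members were chosen by measured values, the numbers of called intervals: the FBXO42 knockout list held more intervals there than the wild-type list, which was not so on most chromosomes, so the numbers of intervals are a description and carry no test.

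The CUT&Tag libraries came from HEK293T, an immortalised human embryonic kidney line. CUT&Tag uses an antibody to bring a transposase to a protein on chromatin, which cuts and tags the DNA beside it. The wild-type list and the knockout list are from cells labelled wild type for FBXO42 and FBXO42 KO, each profiled with an RBPJ antibody. The other RBPJ lists are from libraries titled RBPJ and RBPJK175R, which also carry the genotype FBXO42 KO and the RBPJ antibody, and are called the titled RBPJ and the titled RBPJK175R list here. How the form of RBPJ named in those titles was brought into the cells was not given in the sources used here. A pair of ATAC-seq lists, which mark DNA open to a free transposase, came from cells labelled Jurkat, a leukaemic T cell line, with the genotypes wild type and FBXO42 KO. All knockouts were made with CRISPR constructs carried by lentivirus, and no separation into clones is described. The 3 IgG libraries were not analysed here by themselves. The names of the RBPJ lists point to calling against a control library. Interval numbers, folds and backgrounds may therefore depend on controls that differ between lists. With 1 library per group, each comparison is between 2 libraries, without a replicate check.

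RBPJ is the DNA-binding factor of the Notch pathway. Without a signal it sits with corepressors such as SPEN. When a ligand engages a Notch receptor, gamma-secretase releases the receptor's intracellular part, which joins RBPJ and mastermind and turns on genes such as those of the HES and HEY families. FBXO42 is an F-box protein, the part of an SCF ubiquitin ligase that selects substrates. Chromosome 1 holds FBXO42 itself, SPEN, several HES genes, HEYL, NOTCH2, and the gamma-secretase subunit genes PSEN2, NCSTN and APH1A.

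RBPJ is known to bind the letters GTGGGAA. To show what lies before gene starts described below, the 250 bases upstream of 3 Notch genes and FBXO42 are printed 5′ to 3′ on the gene's strand, from the RefSeq promoter table on GRCh38.p14, the build of the deposited intervals being hg38. Capitals mark GTGGGAA or its reverse complement TTCCCAC.
HES4, minus strand, chr1:1000098-1000347: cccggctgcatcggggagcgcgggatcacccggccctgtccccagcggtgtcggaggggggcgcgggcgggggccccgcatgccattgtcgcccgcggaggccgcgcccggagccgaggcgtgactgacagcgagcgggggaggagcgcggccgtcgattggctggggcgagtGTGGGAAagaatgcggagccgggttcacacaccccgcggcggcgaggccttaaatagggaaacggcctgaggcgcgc
HES5, minus strand, chr1:2530264-2530513: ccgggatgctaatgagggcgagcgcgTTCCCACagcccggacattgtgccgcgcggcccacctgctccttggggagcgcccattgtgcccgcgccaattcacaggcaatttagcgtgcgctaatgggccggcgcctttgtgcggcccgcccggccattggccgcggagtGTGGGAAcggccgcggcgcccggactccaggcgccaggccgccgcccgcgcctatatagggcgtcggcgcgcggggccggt
HEYL, minus strand, chr1:39639644-39639893: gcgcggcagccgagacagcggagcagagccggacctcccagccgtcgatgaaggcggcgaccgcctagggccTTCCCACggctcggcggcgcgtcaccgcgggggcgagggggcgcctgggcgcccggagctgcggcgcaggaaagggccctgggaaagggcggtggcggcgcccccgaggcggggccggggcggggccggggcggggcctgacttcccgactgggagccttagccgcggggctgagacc
FBXO42, minus strand, chr1:16352481-16352730: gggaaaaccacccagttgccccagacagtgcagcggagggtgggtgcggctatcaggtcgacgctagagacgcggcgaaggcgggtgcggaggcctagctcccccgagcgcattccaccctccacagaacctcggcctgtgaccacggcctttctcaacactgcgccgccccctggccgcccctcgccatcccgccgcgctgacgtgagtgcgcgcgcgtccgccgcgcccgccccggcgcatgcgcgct
SPEN, plus strand, 30 bases across its start, chr1:15847697-15847726: cgcgcgcgccaGTGGGAAgcgtccggctgc

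In HES4 the match began 77 bases before the start, and in HEYL 178 bases before it. HES5 held 2 matches, beginning 224 and 81 bases before its start, and the stretch before FBXO42 held none. In SPEN the match began at position 2 of the transcript, counting its first base as 1. The letters on either strand were present in 6.25% of all promoters of the table, taken as 300 bases from 250 before to 50 after each start. On chromosome 1 they were present in 7.14% of protein-coding promoters, in 9.23% of those with an interval in all 4 RBPJ lists and in 7.32% of those with none. Among promoters with a wild-type but no knockout interval it was 3.26%, from 10 of 307 promoters. It was 8.67% with a knockout but no wild-type interval, from 15 of 173, and 7.91% with both. A match is a description of these letters and not a measured binding site.

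The lists held 5136 intervals on chromosome 1 in wild type, 6718 in knockout, 2110 in titled RBPJ and 2680 in titled RBPJK175R, and the ATAC lists held 3483 in wild type and 2402 in knockout. The chromosome held 18.2% of all knockout intervals and between 10.6% and 12.04% of each other RBPJ list. The wild-type intervals covered 4.07 Mb and the knockout intervals 5.65 Mb. The knockout list therefore had both more intervals and more covered length on this chromosome. The ratio of knockout to wild-type intervals was 1.31 (95% binomial interval 1.26 to 1.36). The same ratio on the 22 other chromosomes, 2 to 22 and X, had a median of 0.746, a low of 0.459 (chromosome 3) and a high of 1.43 (chromosome 21), and chromosome 21 alone lay above chromosome 1. The titled RBPJK175R to titled RBPJ ratio was 1.27 (1.199 to 1.35), with 2 other chromosomes above it, and the ATAC knockout to wild-type ratio was 0.690 (0.654 to 0.727), with 1 above it. All such intervals cover counting error only.

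The excess in number over wild type rested on weak intervals. The authors' −log10 q, the caller's corrected significance for 1 peak, was at least 10 for 1186 wild-type and 737 knockout intervals, a ratio of 0.621, so the order turned among the strongest calls. At a −log10 q of at least 5 the numbers were 2354 and 2248. On the other chromosomes 9549 wild-type and 4576 knockout intervals reached 10, and 17910 and 11298 reached 5. Knockout thus fell further below wild type there than on chromosome 1 at both thresholds. These intervals are part of the numbers by which the chromosome was chosen, so nothing is read from that difference. The authors' fold is the summit pileup over the background set by the caller. It was at the median 4.12 in wild type, 3.85 in knockout, 4.90 in titled RBPJ and 4.75 in titled RBPJK175R. With a fold of at least 5 asked in both lists, a setting chosen after seeing the data, the knockout to wild-type ratio was 0.804. The titled pair behaved alike in this respect, with 566 RBPJ and 387 RBPJK175R intervals at a −log10 q of at least 10.

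Summit reads recovered from the deposited fold and p-values show the depth behind a typical interval. The median was 15 reads over a background of 2.81 in wild type and 14 over 2.84 in knockout. In the titled lists it was 18 reads for RBPJ and 10 for RBPJK175R. On the other chromosomes the median background was 2.81 in wild type and 3.14 in knockout, and 16 of the 22 other chromosomes lay above chromosome 1 in wild type and 18 in knockout. The gap was the wider in knockout. The part of this difference in the number of called intervals was not tested. Intervals just inside the calling threshold, with a −log10 q under 1.5, numbered 143 in wild type, 227 in knockout, 78 in titled RBPJ and 54 in titled RBPJK175R, with median folds between 2.80 and 3.04. Values below the threshold are not used here.

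Along the chromosome, knockout and wild-type numbers parted in blocks. Of the 25 windows, 24 held intervals, and 15 of the 24 had more knockout than wild-type intervals, against 17.1% of windows over the whole genome with at least 20 wild-type intervals. The rule for choosing the chromosome used this contrast, so nothing is read from that difference. From 0 to 40 Mb the ratio was 1.37, from 40 to 120 Mb it was 0.872, and from 120 Mb to the end it was 1.53. The sum of the window differences was 1582 intervals, made of 1779 more in windows with a knockout excess and 197 fewer in the others.

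The largest excess was at 150 to 160 Mb, with 343 wild-type and 667 knockout intervals, a ratio of 1.94. This window held 282 protein-coding genes, and the excess within it was uneven. The 1 Mb stretches from 154 to 157 Mb held 40, 78 and 68 wild-type and 91, 137 and 174 knockout intervals. At 152 to 153 Mb each list held 7. The next windows by excess were 0 to 10 Mb, with 505 and 735, and 200 to 210 Mb, with 250 and 478. The largest deficits were small beside them, with 231 wild-type and 192 knockout intervals at 60 to 70 Mb, 108 and 70 at 80 to 90 Mb, and 126 and 98 at 100 to 110 Mb. The window of FBXO42, 10 to 20 Mb, held 347 wild-type and 471 knockout intervals, a ratio of 1.36, close to the 1.46, 1.36 and 1.29 of the windows that flank it from 0 to 40 Mb. It held 162 titled RBPJ, 225 titled RBPJK175R, 170 wild-type ATAC and 104 knockout ATAC intervals.

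The other list pairs did not share this profile of blocks. Titled RBPJK175R exceeded titled RBPJ in 22 of the 24 windows, against 74.8% of windows genome-wide. The ATAC knockout list exceeded its wild-type list in 0 of 24, against 1.29% genome-wide. Whether the profiles differ between pairs was not tested.

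Windows with more genes had higher ratios, here and elsewhere. On chromosome 1 the median window ratio was 0.782 with under 60 protein-coding genes (3 of 9 windows above 1), 1.09 with 60 to under 120 (6 of 8) and 1.36 with 120 or more (6 of 7). On the other chromosomes the same classes gave medians of 0.431, 0.687 and 0.893, with 9 of 162, 16 of 81 and 10 of 25 windows above 1. Pooled over the windows of a class, the ratios were 1.03, 1.23 and 1.46 on chromosome 1 and 0.556, 0.874 and 1.05 elsewhere, so at both ends the pooled value passed 1 where most windows did not: in the class of fewest genes here and in that of most genes elsewhere. The level of chromosome 1 follows from how it was chosen, and nothing is read from it. Spearman's rho between gene number and ratio was 0.657 over the 24 windows of chromosome 1 and 0.498 over 268 windows of other chromosomes. Windows share their libraries and depth, so these are descriptions.

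**Figure D1:**
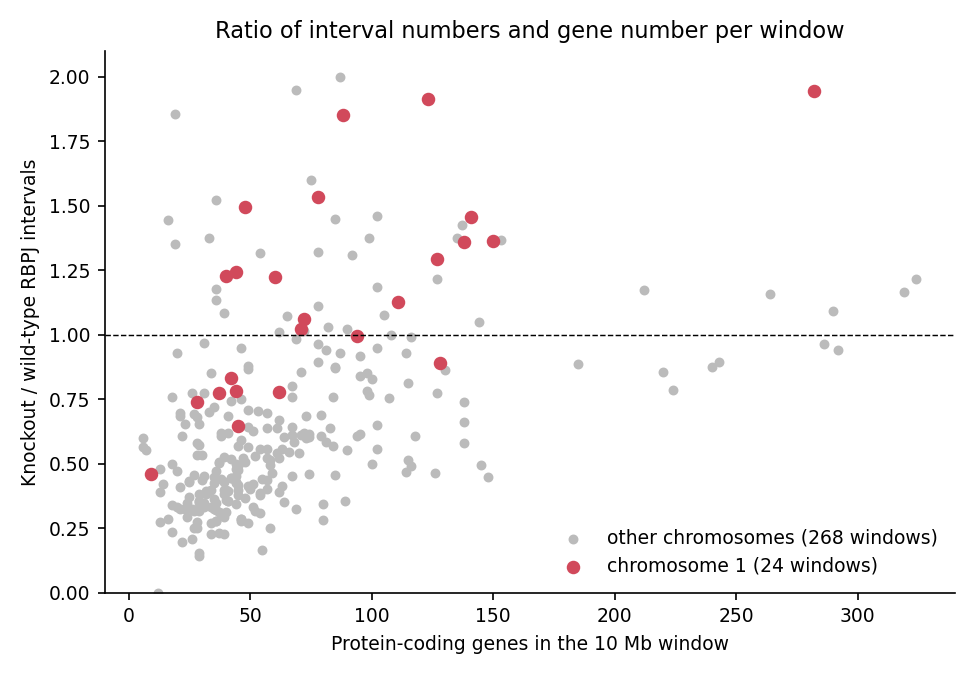
Each point is a 10 Mb window with at least 20 wild-type intervals, placed by its number of protein-coding genes and by the ratio of knockout to wild-type RBPJ intervals, with the dashed line at equal numbers. The 24 chromosome 1 windows (red) run from 0.462 to 1.94 and are drawn over the other windows (grey), which run from 0 to 2.

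Most knockout intervals of chromosome 1 overlapped no wild-type interval. The share of wild-type intervals with at least 1 bp in the knockout list was 38.1%, against 32.1% over the whole list. The share of knockout intervals in the wild-type list was 29.2%, against 38.1%. The numbers of these intervals chose the chromosome, so nothing is read from its differences from the whole lists. For the titled pair, 45.0% of RBPJ intervals lay in the RBPJK175R list (43.8% over the whole list) and 36.4% of RBPJK175R intervals in the RBPJ list (39.7%). The ATAC lists shared 45.0% of wild-type intervals (40.2% over the whole list) and 65.7% of knockout intervals (64.2%). Overlap was most frequent among the strongest intervals of each list. In the highest decile by fold it was 93.6% for wild type, 81.7% for knockout, 95.3% for titled RBPJ and 91.8% for titled RBPJK175R. In the lowest decile it was between 24.1% and 32.2%.

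The 4759 knockout intervals that overlapped no wild-type interval were weak and away from gene starts. Their median fold was 3.74 and 89 of them had a −log10 q of at least 10. Within 1 kb of a protein-coding start lay 4.37%, and 3.47% overlapped an ATAC wild-type interval, where knockout intervals shared with wild type had 38.4% and 51.5%. A titled list, also from FBXO42 knockout cells, overlapped 553 of them, 11.6%. That is close to the 10.5%, or 333, of the 3177 wild-type intervals without a knockout overlap. The 3177 wild-type intervals without a knockout overlap had a median fold of 3.86, 9.44% lay at a start and 221 had a −log10 q of at least 10. The 3 stretches of 1 Mb with the most unshared knockout intervals were 156 to 157 Mb, with 130, 32 to 33 Mb, with 123, and 1 to 2 Mb, with 121. These held 68, 146 and 176 wild-type intervals and 174, 200 and 226 knockout intervals in all. The largest fold among their unshared knockout intervals was 7.98.

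Knockout intervals also lay closer together. A neighbour within 5 kb was present for 63.4% of knockout intervals on chromosome 1 and 58.0% elsewhere, against 50.7% and 50.8% in wild type. Interval numbers, by which the chromosome was chosen, bear on this spacing, so nothing is read from the difference between chromosomes.

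Merging the 4 lists gave 11452 sites on the chromosome. Of these, 672 were in all 4 lists, and 59.4% of them lay at a protein-coding start and 82.1% overlapped a wild-type ATAC interval. In 1 list alone were 8706 sites, of which 5.12% lay at a start and 6.27% overlapped wild-type ATAC. Sites called in all 4 lists were thus mostly at starts and on ATAC intervals, and sites called once mostly were not. Their median widths were 2174 bp and 474 bp, and the part of width in this difference was not tested. At the 1959 wild-type intervals with a knockout overlap, knockout summit reads were lower, with a median log2 ratio of -0.32 (quartiles -0.80 and 0.18), against -0.58 over all other chromosomes. Read numbers were not scaled for depth between libraries. For RBPJK175R over RBPJ the median log2 ratio was -0.83 over 950 sites, and for ATAC knockout over wild type it was -0.82 over 1566 sites.

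The FBXO42 gene, on the minus strand at chr1:16246840-16352480, held an interval at its start in every list. The summit had 90 reads in wild type, 39 in knockout, 38 in titled RBPJ and 21 in titled RBPJK175R, and 21 and 13 in the wild-type and knockout ATAC lists. Wild type was the highest RBPJ library and RBPJK175R the lowest. Within 100 kb on either side of the gene lay 28 wild-type and 29 knockout intervals, 9 titled RBPJ and 12 titled RBPJK175R intervals. Inside the gene itself there were 8 wild-type, 5 knockout, 1 titled RBPJ and 1 titled RBPJK175R intervals. The CRISPR target within FBXO42 was not given in the sources used here, and called intervals do not check the knockout.

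SPEN, whose protein is an RBPJ corepressor, held the start interval of highest fold in wild type and in knockout. Its summit had 1822 reads in wild type, 625 in knockout, 646 in titled RBPJ and 315 in titled RBPJK175R, with folds of 291, 131, 35.0 and 32.0. The wild-type interval spanned chr1:15842732-15853867. An interval of every RBPJ list covered the GTGGGAA match printed above. In titled RBPJK175R the strongest interval, chr1:15848698-15850640, began past the match, which a weaker interval covered. Neither ATAC list had an interval within 1 kb of the SPEN start, but the SPEN interval of every RBPJ list overlapped an interval of both ATAC lists farther from the start.

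HES4, a basic helix-loop-helix repressor gene of the Notch response, came next among Notch genes. It had 957 summit reads in wild type, 296 in knockout, 309 in titled RBPJ and 111 in titled RBPJK175R, and 32 and 15 in the ATAC lists. ID3, which encodes an inhibitor of helix-loop-helix factors, had 174, 50, 43 and 20 in the 4 RBPJ lists in the same order. HEYL, a HES-related repressor gene, had 102, 45, 50 and 23. In SPEN, HES4, ID3 and HEYL the wild-type library was the highest of 4 and the titled RBPJK175R library the lowest, while knockout and titled RBPJ lay close together. The titled RBPJK175R list also had the fewest reads at its median summit, 10, and the part of depth in this order was not tested.

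HES3 and HES5 had no start interval in any of the 6 lists, and HES2 had one in knockout (15 reads) and titled RBPJ (19 reads) only. HIVEP3, a zinc finger gene, had 23 reads in wild type and no interval in the other RBPJ lists. CDKN2C, which encodes the CDK inhibitor p18, had 273 reads in wild type, 186 in knockout, 33 in titled RBPJ and 13 in titled RBPJK175R, with its fold higher in knockout, 48.7, than in wild type, 32.7. RUNX3 had 13, 18 and 17 reads in wild type, knockout and titled RBPJ and no interval in titled RBPJK175R. Of the 10 Notch target genes with a listed start, 7 had an interval in wild type, 6 in knockout, 6 in titled RBPJ and 4 in titled RBPJK175R. The shares of all protein-coding genes were 58.2%, 52.4%, 39.7% and 32.8% on this chromosome and 55.8%, 40.5%, 39.3% and 29.5% genome-wide.

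All 12 Notch pathway genes of the chromosome had a wild-type start interval, 7 a knockout interval, and 6 each a titled RBPJ and a titled RBPJK175R interval. Over all protein-coding genes of the chromosome the shares were 58.2%, 52.4%, 39.7% and 32.8%. MIB2, a ubiquitin ligase gene for Notch ligands, had a wild-type fold of 40.6 and a knockout fold of 38.0, with 9.05 in titled RBPJ and 5.995 in titled RBPJK175R. The receptor gene NOTCH2 had 38 reads in wild type and no interval in the other RBPJ lists. Among gamma-secretase genes, NCSTN had 25 reads in wild type, 20 in knockout and 14 in titled RBPJK175R, APH1A had 23 in both wild type and knockout, and PSEN2 had 31 in wild type and 17 in titled RBPJ. The corepressor genes KDM1A and HDAC1 had 38 and 61 reads in wild type, and 34 and none called in knockout. The NOTCH2NL genes are near-identical copies of part of NOTCH2, so the placement of reads among them is uncertain and their folds, between 6.99 and 13.7 in wild type, are too.

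Over the 1747 protein-coding genes of the chromosome with a listed start, 1017 had an interval within 1 kb in wild type, 915 in knockout, 693 in titled RBPJ and 573 in titled RBPJK175R. These are 58.2%, 52.4%, 39.7% and 32.8%, beside the genome-wide 55.8%, 40.5%, 39.3% and 29.5%. The ATAC lists had 1042 and 873, against 59.8% and 46.4%. An interval in wild type and none in knockout was found at 221 genes, 12.7%, against 18.9% genome-wide. The reverse was found at 119, 6.81%, against 3.63%. For the titled pair, 198 genes had RBPJ only, against 13.8% genome-wide, and 78 had RBPJK175R only, against 4.07%. The chromosome was chosen by its wild-type and knockout interval numbers, so nothing is read from how those shares differ from genome-wide. A start interval in all 4 lists was found at 453 genes and in none at 569. So although the knockout list was longer on this chromosome, fewer genes had a knockout interval at the start than a wild-type one.

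The strongest start intervals outside the Notch lists were shared by all 4 lists. The start shared by DTL, a substrate receptor gene of a CUL4 ubiquitin ligase, and INTS7, an Integrator subunit gene, had 893 reads in wild type, 431 in knockout, 625 in titled RBPJ and 369 in titled RBPJK175R. ABCB10, a mitochondrial transporter gene, had 647, 235, 263 and 55. The start shared by ARID4B, a gene of the SIN3 corepressor complex, and GGPS1 had 620, 369, 356 and 206. DTL was the start of highest fold in the titled RBPJK175R list, at 45.5. FGGY, a carbohydrate kinase gene, was highest in titled RBPJ, at 47.8, with 234 reads, against 54 in titled RBPJK175R. The others named by the rule were CREB3L4 with SLC39A1, ZNF436, KIF1B, BLZF1 with NME7, and TMEM59 with TCEANC2. BLZF1 differed from the rest in having 75 reads in wild type and 90 in knockout.

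Start intervals without overlap in the partner list had lower folds, at most 16.8 among the 10 named for each list, though many overlapped another RBPJ list. Of those in wild type with no knockout overlap, the highest folds were at DBT, a subunit gene of branched-chain keto acid dehydrogenase, with 15.4, at ROR1, a receptor gene for WNT5A, with 12.7, and at PSEN2, with 11.5, and the lowest of the 10 was PHTF1 with 9.74. UBXN11, RGS7, PATJ, EIF2D, SLC6A9 and PTGFRN lay between. Of these 10, 6 overlapped a titled list: DBT, PSEN2, PATJ, EIF2D, SLC6A9 and PTGFRN. In knockout with no wild-type overlap the highest were TFAP2E, an AP-2 transcription factor gene, with 8.33, ADAMTSL4 with 7.65 and ESRRG, an orphan nuclear receptor gene, with 7.07. ACTA1, OXCT2, NAV1, NPR1, RUNX3, DCDC2B and RUSC1 followed, down to 6.18. The summits of these 10 knockout intervals had between 18 and 29 reads, and 3 of them, at ACTA1, RUNX3 and DCDC2B, overlapped a titled list.

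For the titled pair, the highest RBPJ intervals without an RBPJK175R overlap were at ACOT7, an acyl-CoA thioesterase gene, with a fold of 16.8, at PIK3CD, a PI3-kinase subunit gene, with 13.5, and at UAP1 with 12.5. IBA57, with a fold of 11.9, had 278 summit reads in titled RBPJ, with 310 in wild type, 134 in knockout and no RBPJK175R interval at the start. The highest RBPJK175R intervals without an RBPJ overlap were at TARS2, the mitochondrial threonyl-tRNA synthetase gene, with 9.43, at GLRX2 with 8.45 and at JAK1 with 8.17. JAK1 did have a titled RBPJ interval elsewhere at a start, with 15 reads.

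Other gene lists are given beside the shares of all protein-coding genes of the chromosome, 58.2%, 52.4%, 39.7% and 32.8% in wild type, knockout, titled RBPJ and titled RBPJK175R. Of 31 chromatin genes with a listed start, 28 had a wild-type, 19 a knockout, 18 a titled RBPJ and 17 a titled RBPJK175R interval, and 9 had a wild-type interval without a knockout one, with 0 the other way round. Over all genes of the chromosome the last 2 shares were 12.7% and 6.81%. Of the 9, all but HDAC1 and POGZ had wild-type folds between 2.89 and 4.47, where the median wild-type fold on the chromosome was 4.12. SRSF11, among the 9, encodes a splicing factor. ARID1A, a SWI/SNF subunit gene, had 122 reads in wild type, 33 in knockout, 41 in titled RBPJ and 17 in titled RBPJK175R. Of 25 cell cycle genes, 23, 22, 20 and 16 had an interval. Of 12 genes in the ribosomal protein list, 12, 10, 7 and 5 had one. That list mixes cytosolic and mitochondrial ribosomal protein genes. It also holds RPS6KA1, a kinase gene, with an interval in wild type and knockout only. Of 15 housekeeping genes 14, 12, 8 and 7 had one. Of 12 replication-dependent histone genes 6, 6, 4 and 5 had one. Among 8 SCF and F-box genes the numbers were 7, 7, 5 and 4. UBE2T, an E2 enzyme gene, had its highest fold in titled RBPJK175R, 23.7, against 6.97 in wild type, 5.76 in knockout and 10.4 in titled RBPJ.

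T cell markers were mostly absent from the ATAC lists labelled Jurkat. Of 16 T cell genes with a listed start, 2 had an ATAC wild-type interval, against 59.8% of all protein-coding genes. These were CD58 and JAK1, which many cell types express. LCK, CD2, CD247, TAL1, PTPRC and CD48 had none in either ATAC list. In the RBPJ lists from HEK293T, 6, 5, 5 and 3 of the 16 had an interval. The shares of all protein-coding genes of the chromosome were 58.2%, 52.4%, 39.7% and 32.8%. Of 10 kidney and epithelial genes, 5 had an ATAC wild-type interval, EPHA2, LAMC1, GRHL3, ELF3 and WNT4, against 59.8% of all protein-coding genes, and 2 of the 10, LAMC1 and GRHL3, had a knockout ATAC interval, against 46.4%. Of 16 B cell and myeloid genes, 2 had an ATAC wild-type interval, against the same 59.8%. Among the RBPJ lists, 4, 6, 4 and 3 of the 10 kidney and epithelial genes had an interval, in the same order and beside the same shares of the chromosome. The ATAC lists are therefore called by their labels only, and overlap with them is not taken as overlap with T cell chromatin.

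Away from protein-coding starts, many of the intervals of highest fold lay on genes for U1 small nuclear RNA, the RNA that recognises the start of introns. Of the 10 such intervals of highest fold, 4 were at U1 genes in wild type, 8 in knockout, and 6 in each titled list. These genes were chosen for description after the values had been seen. All 20 annotated genes named RNU1 or RNVU1 are on chromosome 1, and 13 of them were covered in wild type, 13 in knockout, 13 in titled RBPJ and 14 in titled RBPJK175R, with 13 in all 4. Over all annotated genes of any kind on the chromosome, the covered shares were 36.9%, 37.4%, 25.1% and 24.5%. A gene was covered with 1 bp anywhere along it, so these shares are not matched for gene length. The highest fold of any wild-type interval on the chromosome, 320, and of any knockout interval, 209, were at RNVU1-7 (chr1:148038753-148038916), where the summits had 886, 548, 416 and 233 reads in wild type, knockout, titled RBPJ and titled RBPJK175R. RNU1-2 (chr1:16895980-16896143) had 1247, 680, 576 and 305, and RNU1-1 had 946, 531, 435 and 243. Of the 13 U1 genes with an interval in all 4 lists, 13 had more reads in wild type than in knockout, 11 more in knockout than in titled RBPJ and 13 more in titled RBPJ than in titled RBPJK175R, with RNVU1-14 (473 and 553) and RNVU1-31 (81 and 81) as the exceptions. By fold, 6 of the 13 were higher in knockout than in wild type, RNU1-1 among them with 54.0 against 39.7. The 98 tRNA genes of the chromosome, another set of short multicopy genes, were covered in 35, 27, 27 and 25 cases, against 43.8%, 32.3%, 38.4% and 33.4% of all tRNA genes of the genome.

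U1 genes and protein-coding starts accounted for 37 of the 50 wild-type intervals of highest fold, 37 of 50 in knockout, 36 of 50 in titled RBPJ and 35 of 50 in titled RBPJK175R. Between 45 and 49 of each list's 50 overlapped all other RBPJ lists. The U1 genes are near-identical copies, so reads can be placed on the wrong copy and the values of single genes are uncertain. IgG values at these genes were not analysed here. The wild-type interval with the most summit reads on the chromosome, 7634, was none of these: it lay at chr1:633756-634126 over a background of 2882 reads, a fold of 2.65.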

How the data were processed

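The data were 6 deposited lists of called intervals, 4 from RBPJ CUT&Tag and 2 from ATAC-seq, 1 list per library, grouped by sample title. Per the submitters' processing notes, reads were handled with Trim Galore, Bowtie2, MACS2 and deepTools on hg38, and no versions, settings or pooling are stated. The deposited columns were used as the authors gave them. The authors' fold is a ratio of summit pileup to the caller's background, which may come from a control library. The deposited −log10 p and −log10 q are the caller's, and the deposited score equalled 10 times the −log10 q to within 1 unit in every interval of all 6 lists. The summit offset is the authors' distance from the interval's start.

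From these, summit reads and background were solved from fold and −log10 p under a Poisson model, giving whole reads within 0.1% for at least 99.995% of intervals. In the titled RBPJ list this held after the reads were multiplied by 0.812, a factor found from the values. Total read numbers are unknown. The lowest background of a list was 1.77 in wild type, 1.63 in knockout, 0.0208 in titled RBPJ and 0.675 in titled RBPJK175R. It may depend on the depth, control and scaling of a list, and was not tested as a measure of depth. The calculation was tested on simulated data.

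Intervals with the same position were counted once, on chromosomes 1 to 22 and X. Windows were 10 Mb by midpoint, overlap was at least 1 bp, and a start interval lay within 1 kb of a start in the RefSeq promoter table (GRCh38.p14), which listed 1747 of the 2062 protein-coding genes of chromosome 1 and 15812 of 19974 overall. Shares have Clopper-Pearson and ratios exact binomial 95% intervals. No p-value was computed, since every group had 1 library. Named were the 3 windows with the largest difference each way and that of FBXO42, the 5 start intervals of highest fold per RBPJ list, the 10 of highest fold per list without overlap in its partner, up to 6 members per gene list, fixed Notch genes and 3 stretches of 1 Mb. The members, gene lists and rules were chosen with earlier results of these data known. Alternatives varied thresholds, windows, overlap and distance to a start. Python 3.11.15 with numpy 2.4.6, pandas 2.3.3 and scipy 1.17.1 was used.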

Additional observations from a re-analysis of the deposited data

How the results depend on the processing

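The knockout to wild-type ratio of interval numbers was 1.39 by covered length, 1.24 after merging intervals within 1 kb and 1.51 as a ratio of shares of the list, and it turned to 0.955 and 0.621 at a −log10 q of at least 5 and 10, and to 0.804 at a fold of at least 5, a setting added after seeing the data. For titled RBPJK175R over RBPJ it was 1.02 by length and 1.11 by share, and turned to 0.891 and 0.684 at a −log10 q of at least 5 and 10. For ATAC it was 0.617 by length, 0.535 and 0.412 at those thresholds, and turned to 1.09 as a ratio of shares. The share of windows with more knockout intervals was between 59.6% and 68% with other window sizes and positions, and 25% and 0% at a −log10 q of at least 5 and 10. For RBPJK175R over RBPJ it was 100% with 20 Mb windows, and 29.2% and 4.17% at those thresholds. Raising the threshold leaves fewer intervals, and the cause of the turn was not tested.

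Overlap asked over 50% of the interval's own length, within 1 kb, and at a −log10 q of at least 5 and 10 was, in that order, 28.0%, 48.2%, 44.0% and 48.6% for wild type in knockout, 20.2%, 38.7%, 45.6% and 78.0% for knockout in wild type, 33.7%, 50.7%, 51.3% and 53.7% for RBPJ in RBPJK175R, and 31.0%, 40.7%, 58.6% and 79.3% for RBPJK175R in RBPJ. The share at a start, with 250 bp, 2.5 kb, and a −log10 q of at least 5 and 10, was 17.4%, 25.9%, 36.4% and 56.4% in wild type, 11.3%, 20.2%, 29.0% and 56.3% in knockout, 27.7%, 37.3%, 45.9% and 56.9% in titled RBPJ, and 16.0%, 25.9%, 37.7% and 54.0% in titled RBPJK175R.

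Genes with a start interval numbered 460 in knockout, 368 in titled RBPJ and 241 in titled RBPJK175R at a −log10 q of at least 10. Genes with a knockout but no wild-type interval numbered 69 and 29 at a −log10 q of at least 5 and 10. Genes with an RBPJK175R but no RBPJ interval numbered 48 with 250 bp, and 41 and 22 at those thresholds. Of the 187 folds at named genes, 48 had no interval left at a −log10 q of at least 10, 20 at 5 and 15 with 250 bp. The median folds moved by less than 1.5 times.

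No paired analysis was possible because each group has 1 library, and no replicate could be left out for the same reason. Depth limits what can be said of an interval that is missing from a list: the median summit had 10 reads in titled RBPJK175R and 14 in knockout, beside 8 and 9 reads in intervals just inside the threshold.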

Other observations

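Ribosomal RNA genes, 33 of them annotated on chromosome 1, were covered by an interval in 2 cases in wild type, 2 in knockout and 0 in each titled list, and the 16 annotated elsewhere in 0, 2, 0 and 0. Small nucleolar RNA genes, which guide modification of ribosomal RNA, were covered in 9, 8, 3 and 2 of 110 cases in wild type, knockout, titled RBPJ and titled RBPJK175R, and in 50, 33, 21 and 10 of 1086 elsewhere. MicroRNA genes were covered in 16, 17, 13 and 5 of 157 cases, and in 153, 130, 71 and 42 of 1754 elsewhere. Over all annotated genes of the chromosome the covered shares were 36.9%, 37.4%, 25.1% and 24.5%, which are not matched for gene length. Small nuclear RNA genes other than U1 were covered in 5, 6, 6 and 5 of 20 cases on this chromosome and in 25, 19, 17 and 17 of 114 elsewhere. These sets were chosen after the values had been seen, and many of their members lie inside or beside other genes.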
